A study of Mus musculus with 4 samples.

Results

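The Ets family is a group of transcription factors that share a winged helix-turn-helix DNA-binding domain, the Ets domain, and read DNA sites built around a GGAA core. The 9 members described here are Spi1 (PU.1), Spib, Spic, Etv3, Etv5, Etv6, Fli1, Elf1 and Elf4. They were taken by gene symbol out of 19938 annotated genes, and 11 of the 35399 probe sets in the deposited table carry exactly 1 of these symbols. Etv5 and Elf4 have 2 probe sets each, and the brighter one stands for the gene below. RNA came from splenic Esam dendritic cells (DC) of 6-week-old mice, sorted by Esam, CD4 and CD8 from cells positive for CD11c and MHC class II, with 1 Affymetrix array per mouse. The cKO mice (DCRunx3 -/-, 2 arrays) had floxed Runx3 removed by Cre under the CD11c promoter, which acts in CD11c-expressing cells, and the wt mice (DCRunx3 +/+, 2 arrays) were their littermates. Each of 2 litters gave 1 cKO and 1 wt mouse, and whether the wt mice carried floxed alleles or Cre is not in the labels. The comparison addresses which genes of Esam DC respond to loss of the transcription factor Runx3.

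Ets factors act at many steps of blood cell formation. PU.1 is required for myeloid and DC development and often binds DNA together with Irf4 or Irf8, Spi-B acts in B cells and plasmacytoid DC (pDC), and Spi-C drives the red pulp macrophages of the spleen, which recycle iron from red cells. Etv5 belongs with Etv1 and Etv4 to the PEA3 group, whose genes are induced by growth factor and ERK signalling in several tissues and are repressed by Cic. Ets and Runx factors are known to bind composite sites together on DNA.

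The promoter windows of Etv5 and Spic are shown because these were the members that passed the thresholds of the study in the comparison below. Each window runs from 250 bases before to 50 bases after a RefSeq transcription start (build GRCm38.p6) and is written on the strand of the gene. Capitals mark the RUNX motif (TGTGGT or TGCGGT) and an Ets motif (AGGAAGT), each searched on both strands, and no RUNX match overlapped an Ets match. Etv5 has 2 start sites in the table, at chr16:22439521-22439820 (first) and chr16:22438319-22438618 (second), and the Spic window is chr10:88682974-88683273, all on the minus strand.
Etv5 first start: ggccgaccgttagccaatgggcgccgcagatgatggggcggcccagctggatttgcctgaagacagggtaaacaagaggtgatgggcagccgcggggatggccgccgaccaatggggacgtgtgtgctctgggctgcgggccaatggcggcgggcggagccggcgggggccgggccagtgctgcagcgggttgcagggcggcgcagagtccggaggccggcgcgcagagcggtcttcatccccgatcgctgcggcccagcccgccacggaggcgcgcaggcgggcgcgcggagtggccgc
Etv5 second start: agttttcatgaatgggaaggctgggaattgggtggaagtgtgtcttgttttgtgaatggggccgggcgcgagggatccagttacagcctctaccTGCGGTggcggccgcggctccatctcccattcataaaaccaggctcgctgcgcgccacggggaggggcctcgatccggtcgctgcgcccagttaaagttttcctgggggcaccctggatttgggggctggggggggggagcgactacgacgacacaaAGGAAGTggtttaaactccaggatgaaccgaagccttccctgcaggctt
Spic: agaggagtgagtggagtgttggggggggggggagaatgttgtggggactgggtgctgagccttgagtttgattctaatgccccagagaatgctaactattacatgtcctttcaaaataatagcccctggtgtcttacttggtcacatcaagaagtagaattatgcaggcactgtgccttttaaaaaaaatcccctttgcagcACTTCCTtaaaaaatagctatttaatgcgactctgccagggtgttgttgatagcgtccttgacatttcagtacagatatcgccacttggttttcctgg

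The letters TGTGGT were in none of the 10 windows found for 7 of the 9 members, against 16.8% of all 32817 promoter windows of this length. TGCGGT was in 1 of the 10, the second Etv5 window, at position -156 from the start, against 6.45% of all windows. AGGAAGT lay at position 2 from the second Etv5 start, -48 from the Spic start and 7 from the Etv3 start, against 9.35% of all windows. A match is a stretch of letters and not a bound site.

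All levels are deposited RMA values in log2 units. A difference is the cKO mean less the wt mean in these units, and a group mean is given with its SD over 2 arrays. A probe set was tested if it reached 6.5, the background limit of the study, on at least 1 array, which 18889 probe sets did. The thresholds of the study are an absolute fold of at least 1.5 and an unadjusted p of at most 0.05 in its one-way test. Array medians lay between 6.58 and 6.62. The Runx3 probe set was at 11.47 and 11.45 in cKO and at 11.37 and 11.51 in wt, and since no source says whether its probes lie within the deleted region, it gives no check of the labels. Xist was at 12.78 (cKO) and 12.75 (wt) in litter 1 and at 5.19 (cKO) and 5.15 (wt) in litter 2. The Y-linked gene Kdm5d ran the other way, at 5.2 (cKO) and 5.3 (wt) in litter 1 and at 9.9 (cKO) and 9.8 (wt) in litter 2. All mice are labelled male, but the litter 1 arrays read as female by both genes. Litter and sex cannot be told apart, so each contrast between litters below is also one between these sex-linked signals. All 12 markers of conventional DC in general or of the CD11b+ subset, Itgax, Esam and Cd4 among them, reached the limit, whereas 9 of 9 T and NK cell markers stayed under it on every array. Markers of other cells reached it too: 10 of 10 of the CD8+ DC subset (cDC1), 7 of 7 of monocytes and 11 of 13 of macrophages. So did 7 of 8 pDC, 6 of 9 B cell and 4 of 6 endothelial markers.

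Etv5 and Spic were higher in cKO, Spib was somewhat higher without passing either test, and Spi1, the member with the best known part in DC, was slightly lower without passing. All 9 genes reached the limit of 6.5. Of these, 2 passed the thresholds of the study, both in the direction of cKO, against 1.41% of all tested probe sets in either direction and 0.9% higher in cKO. By limma after Benjamini-Hochberg adjustment over all tested probe sets none of the 9 passed, and the share over the whole table was 0%, with 9.38% of probe sets at an unadjusted p under 0.05 (2 of the 9 members). The members were chosen with earlier results of these data known, so their own share is a description. A comparison of 2 mice with 2 mice cannot reach an exact permutation p below 0.333 for a single gene. For 4 members both cKO arrays lay above both wt arrays (Etv5, Spic, Spib and Elf1), against 16.4% of tested probe sets, and for 2 they lay below (Spi1 and Elf4), against 23.7%.

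**Figure D1:**
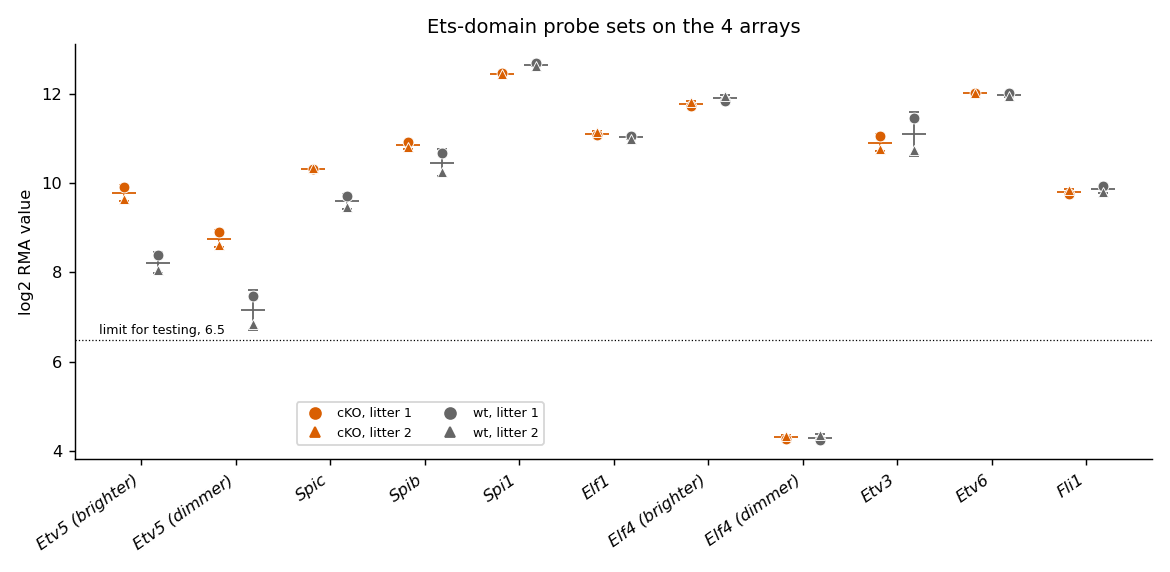
Log2 RMA value (y axis) of each of 11 Ets-domain probe sets (x axis) on the 4 arrays, with cKO in orange left of wt in grey, circles for litter 1 and triangles for litter 2. Bars are the mean and SD of 2 arrays, and both Etv5 probe sets and Spic show a clear gap between the genotypes, whereas the dimmer Elf4 probe set lies near 4.3 on every array.

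Etv5 had the widest difference of the 9 members. Its brighter probe set was at 9.90 and 9.65 in cKO, against 8.38 and 8.06 in wt. Both cKO arrays lay more than 1 log2 unit above both wt arrays. The group values were 9.78 ± 0.18 in cKO and 8.22 ± 0.23 in wt (SD, n = 2 each), a 2.95-fold difference. The difference was 1.56 with a standard error of 0.16 (95% interval 1.12 to 2.00), limma adjusted p = 0.177, and it passed the thresholds of the study. It was 1.52 within litter 1 and 1.59 within litter 2. Among the 18889 tested probe sets, 0.122% differed by at least as much in either direction.

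The second Etv5 probe set, which carries the same transcript accessions, read 8.90 and 8.62 in cKO, against 7.48 and 6.84 in wt. It too showed no overlap between the genotypes, with a difference of 1.60 (standard error 0.25, limma adjusted p = 0.243), or 3.02-fold. The annotation gives no position for either probe set, but probe sets with neighbouring ID numbers mostly lie on the same chromosome. Of the 20 annotated neighbours by ID, all 20 of the brighter Etv5 probe set were genes of chromosome 10, whereas 19 of 20 of the dimmer one were genes of chromosome 16, where Etv5 lies. For every probe set of the other 8 members at least 18 of 20 neighbours shared the chromosome of the gene. The brighter probe set may therefore not lie at the Etv5 locus, although it carries the accessions of Etv5, and every value given for it is open to that limit. With the litter as a block the brighter probe set still passed the thresholds of the study, and the dimmer one did not. In a fit of 9894 genes with only the brightest probe set of each, Etv5 passed the adjusted threshold as well (limma adjusted p = 0.0461), as did 0.424% of those genes. With the dimmer probe set in its place it did not (limma adjusted p = 0.0815). When the litter block was added to these fits both did (limma adjusted p = 0.0027 for the brighter and 0.0040 for the dimmer). With the block in the fit of all 18889 tested probe sets neither passed (limma adjusted p = 0.252 for both), nor did any other probe set. In the blocked fit with the brightest probe sets 4.13% of all genes passed. With any 1 array left out the brighter probe set no longer passed the thresholds of the study, while its difference stayed between 1.40 and 1.72. That test then has 1 residual degree of freedom.

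The relatives of Etv5 were not seen at this sensitivity. Etv4 lay between 5.02 and 5.22 and the brighter Etv1 probe set between 5.56 and 6.21, under the limit on all 4 arrays, so Etv5 was the PEA3 gene that could be tested. Of 14 symbols listed as regulators of this group or as ERK feedback genes, Rfwd2 and Cop1 name the same gene. Tested were 9 genes, and none passed the thresholds of the study, against 1.41% of all tested probe sets. Their median difference was -0.06 against -0.02 over all tested probe sets. Atxn1, which encodes a partner of the repressor Cic, had the smallest unadjusted p of the list, with 7.68 and 7.50 in cKO and 7.19 and 7.21 in wt. Its difference was 0.39 (standard error 0.10, limma adjusted p = 0.417). Cic itself was at 9.68 and 9.65 in cKO and at 9.77 and 9.72 in wt. The ERK inhibitor genes Spred1 and Spred2 differed by -0.25 and -0.18 (limma adjusted p = 0.573 and 0.6), and the phosphatase gene Dusp6, an ERK-induced gene, by -0.01. Dusp4, Spry1, Spry2 and Spry4 did not reach the limit.

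Spic was the other member past the thresholds of the study. It was at 10.31 and 10.33 in cKO, against 9.70 and 9.47 in wt. The cKO arrays were nearly equal and both lay above the wt arrays, which were 0.23 apart. The group values were 10.32 ± 0.02 in cKO and 9.59 ± 0.16 in wt (SD, n = 2 each), a 1.66-fold difference. The difference was 0.73 (standard error 0.11, 95% interval 0.42 to 1.04, limma adjusted p = 0.238). It was 0.60 within litter 1 and 0.86 within litter 2. Spic lost the call with the litter as a block and when cKO replicate 1 or cKO replicate 2 was left out, with differences between 0.62 and 0.85 over the 4 arrays left out in turn. With 1 probe set per gene it did not pass (limma adjusted p = 0.0752), but it did when the litter block was added to that fit (limma adjusted p = 0.0194). In that blocked fit 4.13% of all genes passed, 409 against 42 without the block. With the block in the fit of all tested probe sets Spic did not pass (limma adjusted p = 0.307).

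Of 7 genes listed as Spi-C targets or as iron-recycling genes, among them the known Spi-C target Vcam1, 5 were tested. None passed the thresholds of the study, against 1.41% of all tested probe sets. Of the 5, 4 had a difference above 0 and 1 below, with a median of 0.68. The gene below 0 was Bach1, a heme-sensing repressor gene, which was nearly unchanged (-0.02), at 9.97 and 9.96 in cKO and at 9.98 and 9.98 in wt. Vcam1, an adhesion molecule of red pulp macrophages, was at 10.43 and 10.91 in cKO and at 9.53 and 10.35 in wt. The prostaglandin-degrading enzyme gene Hpgd was at 11.02 and 11.39 in cKO and at 10.46 and 10.96 in wt. The heme oxygenase gene Hmox1 was at 10.71 and 10.94 in cKO and at 9.50 and 10.79 in wt, so wt replicate 2 overlapped the cKO arrays. The iron exporter gene Slc40a1 (ferroportin), at 9.97 and 10.58 in cKO and at 8.60 and 10.20 in wt, overlapped in the same way. Within wt Vcam1, Hpgd, Hmox1 and Slc40a1 were higher in litter 2, whereas Spic was lower there.

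Macrophage markers were mostly higher in cKO, as Spic was. Of 14 listed symbols, Vcam1 again among them, 13 had a probe set and 11 were tested. The symbol without a probe set, Emr1, is an older name of Adgre1. All 11 had a difference above 0, against 8473 of the 18889 tested probe sets, though Cd68 differed by only 0.02. For 9 of them both cKO arrays lay above both wt arrays, against 16.4% of tested probe sets. Siglec1 reached 6.5 only in cKO. The thresholds of the study were passed by 2, against 0.9% of tested probe sets higher in cKO. These were C1qb (1.78-fold) and Itgad (4.49-fold), of which C1qb kept the call with the litter as a block. The mean log2 level of the 13 was 9.10 and 9.26 in cKO and 8.28 and 8.76 in wt. Marco and Cd163, markers of marginal zone and red pulp macrophages, stayed under 6.5 on all 4 arrays. In sorted cells analysed in bulk, a change in the number of cells of a type and a change in RNA per cell cannot be told apart, and the part of macrophage RNA in the Spic value was not tested.

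**Figure D2:**
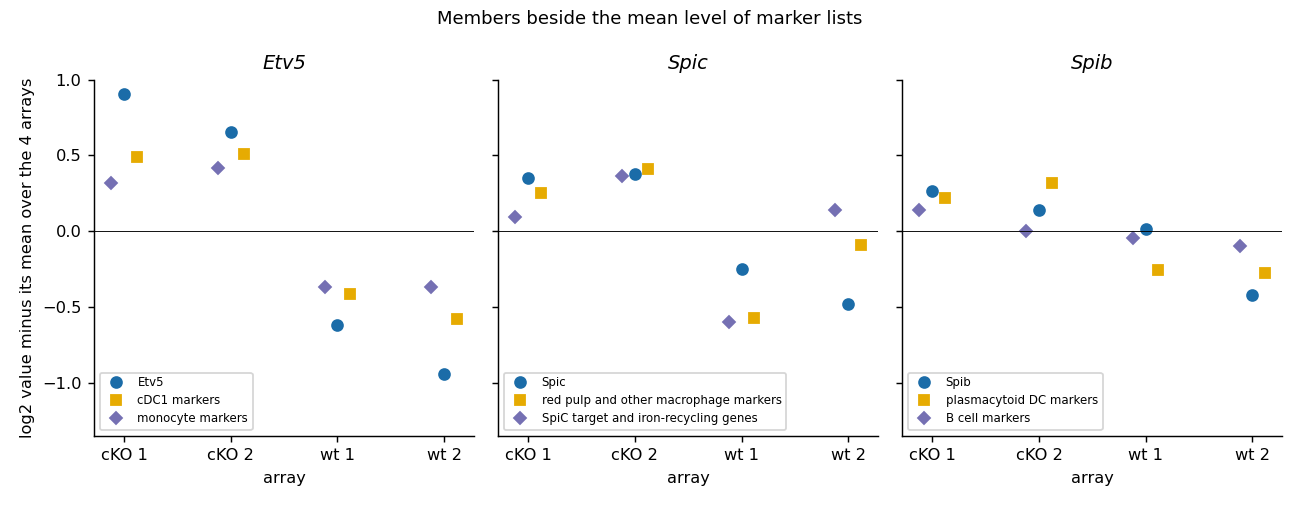
Log2 value of Etv5, Spic and Spib on each array, minus its mean over the 4 arrays (y axis), beside the mean of marker lists treated the same way; the arrays along the x axis are cKO 1, cKO 2, wt 1 and wt 2. Etv5, Spic and the cDC1, monocyte and macrophage lists are higher on both cKO arrays. In wt the macrophage list and the list of Spi-C target and iron-recycling genes are lowest on array 1, whereas Spic is lowest on array 2.

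Spib showed a smaller difference in the same direction. It was at 10.92 and 10.79 in cKO, against 10.67 and 10.24 in wt. The groups did not overlap, but the lower cKO and the higher wt array were close together. The difference was 0.41 (standard error 0.18, 95% interval -0.07 to 0.88), or 1.32-fold, and it passed neither test (limma adjusted p = 0.598). It depended on the wt mouse, being 0.62 without wt replicate 1 and 0.19 without wt replicate 2. Cell types that use Spi-B were looked at through their markers. Of 7 tested pDC markers 5 were higher and 2 lower in cKO, and Cox6a2 passed the thresholds of the study at 6.4-fold. The lower 2 were Irf7, with a difference of -0.43 and no overlap between the genotypes (limma adjusted p = 0.494), and Bst2, with -0.12. The pDC transcription factor gene Tcf4 was at 10.12 and 10.18 in cKO and at 9.77 and 9.69 in wt (limma adjusted p = 0.325). The mean pDC marker level was 8.13 and 8.23 in cKO and 7.66 and 7.63 in wt, with the widest difference of the list in Cox6a2 (2.68). Of 6 tested B cell markers 4 were higher and 2 lower, with a mean level over 9 markers of 7.40 and 7.26 in cKO and 7.21 and 7.16 in wt. Among these Fcer2a (CD23) was at 7.35 and 7.34 in cKO and at 6.19 and 6.44 in wt. Its 2.04-fold difference, measured against wt values under the limit, passed the thresholds of the study, though not with the litter as a block. The B cell kinase gene Blk was at 6.41 and 6.42 in cKO and at 7.40 and 8.22 in wt without passing. Ebf1 and Pax5 were under the limit. The part of pDC or B cell RNA in the Spib value was not tested.

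Spi1 pointed the other way from Spib and Spic, its closest relatives. It was at 12.45 and 12.45 in cKO, against 12.67 and 12.62 in wt. Both cKO arrays lay below both wt arrays, and the arrays of each genotype were within 0.06 of each other. The difference was -0.20 (standard error 0.08, 95% interval -0.42 to 0.03), with -0.22 in litter 1 and -0.17 in litter 2, and limma adjusted p = 0.584. Its ratio of 0.872 was short of the fold limit, although it met the limit of the study on p. The difference between the responses of Spi1 and those of Spib or Spic was not tested.

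Genes known as PU.1 targets in myeloid cells showed a mixed picture. Of 18 listed, 15 were tested. The thresholds of the study were passed by 3, all higher in cKO, against 0.9% of tested probe sets. The other 12 did not pass, and the median difference of the 15 was 0.04. The G-CSF receptor gene Csf3r was at 8.90 and 8.96 in cKO and at 7.60 and 7.70 in wt (2.43-fold, limma adjusted p = 0.158). Irf8, at 11.32 and 11.38 in cKO and at 10.25 and 10.18 in wt, and the CD11b gene Itgam, at 11.31 and 11.35 in cKO and at 10.49 and 10.67 in wt, were the others, and Itgam lost the call with the litter as a block. Of the 12 that did not pass, 2 were higher at an unadjusted limma p under 0.05. These were the lysozyme gene Lyz2, with a difference of 0.72 (limma adjusted p = 0.377), and the M-CSF receptor gene Csf1r, with 0.36 (limma adjusted p = 0.476). The cytokine receptor gene Flt3, the GM-CSF receptor gene Csf2ra, the MHC class II transactivator gene Ciita and the oxidase gene Cybb differed by -0.08, -0.02, -0.03 and -0.01. Of 11 tested partners of Ets factors 2 passed as well, both higher in cKO, against the same 0.9%. These were Irf8 again and Runx1, a Runx factor that binds beside Ets proteins. Runx1 was at 10.86 and 10.92 in cKO and at 10.18 and 10.11 in wt (limma adjusted p = 0.202). Runx1 lost the call with the litter as a block, and Irf8 kept it. The Runx cofactor gene Cbfb was at 10.57 and 10.53 in cKO and at 10.73 and 10.74 in wt, a difference of -0.18 (limma adjusted p = 0.604). Irf4, the partner of PU.1 in CD11b+ DC, differed by -0.26 and did not pass (limma adjusted p = 0.621).

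**Figure D3:**
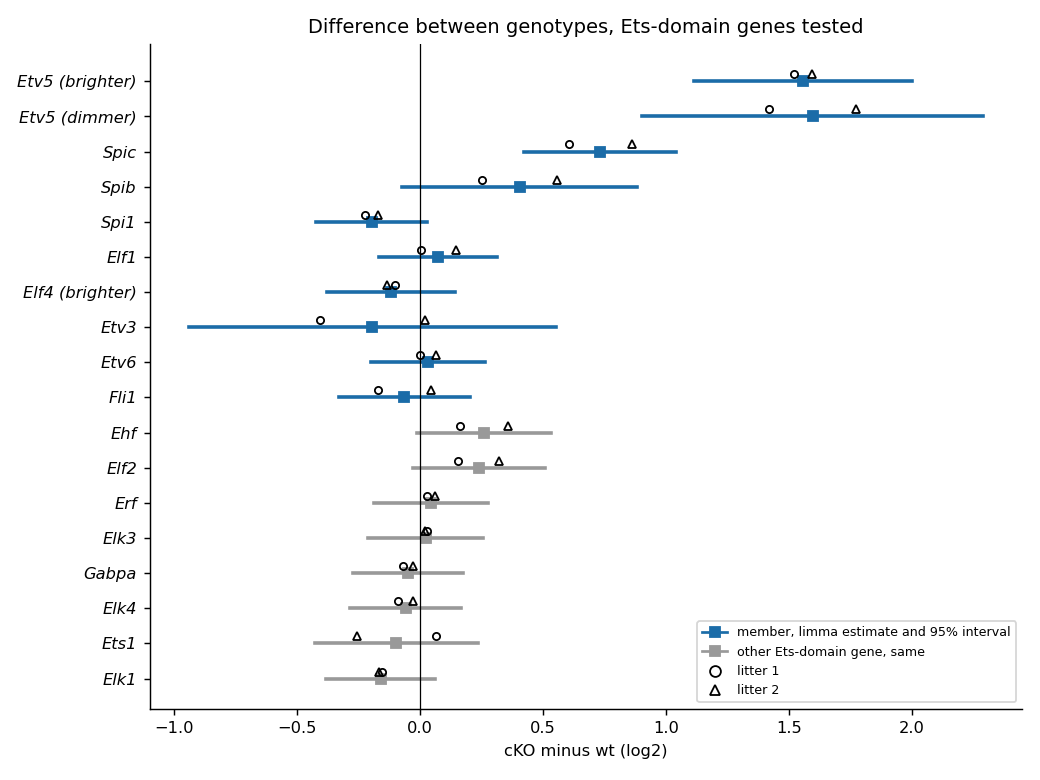
Difference cKO minus wt on the log2 scale (x axis) for the 10 tested probe sets of the members (blue) and for 8 other Ets-domain genes (grey), as limma estimates with 95% intervals. Circles and triangles are the differences within litter 1 and litter 2, and the intervals of both Etv5 probe sets and of Spic do not include 0.

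The remaining 5 members passed neither test, and each had an interval that includes 0. Elf1, an activator of lymphoid and myeloid genes, was at 11.06 and 11.14 in cKO and at 11.06 and 10.99 in wt. The difference was 0.07 (95% interval -0.17 to 0.31), and the gap between the groups was below 0.01. Elf4, which is known for holding CD8 T cells in quiescence, was at 11.73 and 11.82 in cKO and at 11.83 and 11.95 in wt. It differed by -0.12 (95% interval -0.38 to 0.14), with -0.10 in litter 1 and -0.13 in litter 2. The second Elf4 probe set, annotated with a single other transcript, was between 4.26 and 4.36 on all arrays and was not tested. Etv6 (TEL), a repressor needed by blood stem cells, was at 12.02 and 12.00 in cKO and at 12.02 and 11.94 in wt. Its difference was 0.03 (95% interval -0.20 to 0.26).

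Fli1, a regulator of megakaryocytes and blood vessels, was at 9.76 and 9.85 in cKO and at 9.94 and 9.80 in wt. The groups overlapped, and the difference was -0.06 (95% interval -0.33 to 0.20). Etv3, a repressor linked in macrophages to the exit from the cell cycle, was at 11.05 and 10.77 in cKO and at 11.45 and 10.75 in wt. The difference was -0.19 with a 95% interval of -0.94 to 0.55, the widest of the 9. Leaving out wt replicate 2 gave -0.55, and leaving out wt replicate 1 gave 0.16, so the sign rested on 1 wt mouse. The litter 2 array was the lower one in both genotypes, by 0.70 in wt and 0.28 in cKO. The limma adjusted p of these 5 genes ran from 0.787 (Elf4) to 0.95 (Etv6).

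**Figure D4:**
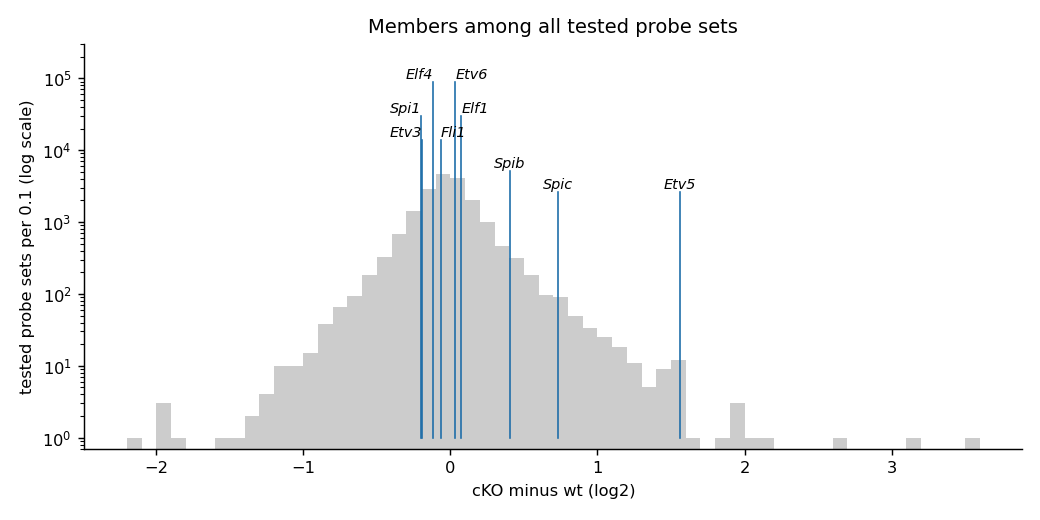
Number of tested probe sets (y axis, log scale) per 0.1 of the difference cKO minus wt on the log2 scale (x axis), with the representative probe set of each of the 9 members marked by a line whose height has no meaning. Etv5 lies in the far right tail and Spic in the right shoulder, and 6 of the members lie within 0.2 of 0.

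Other genes of the family, outside the 9 members, were looked at as well. Of 17 other Ets-domain genes on the list 16 had a probe set and 8 were tested: Ehf, Elf2, Elk1, Elk3, Elk4, Erf, Ets1 and Gabpa. None passed the thresholds of the study, against 1.41% of all tested probe sets, or an unadjusted limma p under 0.05, against 9.38%. For 8 genes no call is near these shares, so it sets no contrast with the members. Their median difference was -0.01 (4 higher, 4 lower). Ehf, an epithelial Ets factor also found in DC, had the smallest limma p of the 8, with 10.37 and 10.54 in cKO and 10.21 and 10.18 in wt. Its difference was 0.26 (standard error 0.10, limma adjusted p = 0.546). Elk1, a target of ERK at serum response elements, met the limit of the study on p in its one-way test but not on fold, with 9.35 and 9.33 in cKO and 9.50 and 9.49 in wt. Elf2 was at 10.47 and 10.47 in cKO and at 10.32 and 10.15 in wt. The other 8, among them Erg, Elf3, Elf5 and Spdef, did not reach 6.5 on any array.

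The genes whose profiles over the 4 arrays were nearest to those of Etv5 and Spic were found among 9893 genes by the Euclidean distance between mean-centred log2 values. Nearest to the brighter Etv5 probe set were P2ry13, a nucleotide receptor gene (distance 0.178), the tetraspanin gene Tspan32 (0.18) and the heparanase gene Hpse (0.196). P2ry13 was at 10.63 and 10.41 in cKO and at 9.34 and 8.90 in wt. Nearest to Spic were the adhesion gene Mpzl2 (0.0402), Crip1 (0.0477), which encodes a LIM domain protein, and Ppt1 (0.0662), a lysosomal enzyme gene that is also in the cDC1 marker list. Mpzl2 was at 8.42 and 8.44 in cKO and at 7.86 and 7.59 in wt. With 4 arrays many profiles are alike by the group difference alone.

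Markers of cDC1, the DC subset usually recognized in spleen by CD8, and of monocytes were also mostly higher in cKO, as Etv5 and Spic were. Of 10 cDC1 markers, among them Irf8 from the PU.1 targets, 8 passed the thresholds of the study, all higher in cKO, against 0.9% of tested probe sets. With the litter as a block 3 of the 8 (Cadm1, Irf8 and Tlr3) kept the call, and 92 of the 18889 tested probe sets passed higher in cKO. The list had mean levels of 10.36 and 10.38 in cKO and 9.46 and 9.29 in wt. Clec9a was 2.76-fold and Cadm1 2.34-fold higher, while Batf3, a transcription factor gene of this subset, was at 9.12 and 9.11 in cKO and at 9.28 and 9.53 in wt. Of 7 monocyte markers all were higher, against 8473 of the 18889 tested probe sets with a difference above 0. The thresholds of the study were passed by 3 (Ace, Ccr2 and Treml4), also with the litter as a block, against the same 0.9%. Ccr2 reached 6.5 only in cKO, at 6.86 and 6.67 against 6.18 and 6.03 in wt. The mean levels of the 7 were 9.91 and 10.01 in cKO and 9.22 and 9.22 in wt. Endothelial markers, of interest for Fli1, had mean levels of 6.66 and 6.68 in cKO and 6.62 and 6.54 in wt. The part of other cells in the Etv5 value was not tested.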

How the data were processed

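RNA from Esam DC of 4 mice was hybridized to 4 arrays. The authors deposited log2 values, computed in Partek by robust multichip averaging (RMA) with GC correction, already normalized between arrays; the submitters' notes name mm9 and give no version. The methods name exon ST 1.0 arrays, whereas the platform annotation is of a gene-level array, so no value is read as a single exon. No detection value per probe set was used here. Probe sets were named by that annotation: 21789 carried 1 symbol, 1621 several (not named) and 11989 were not listed.

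Following the methods, probe sets reaching 6.5 on at least 1 array were tested. The main test was limma 3.58.1 (R 4.3.3), with lmFit and eBayes on the cKO-wt contrast (two-sided) and Benjamini-Hochberg adjustment across all tested probe sets. The thresholds of the study (fold 1.5, unadjusted p of at most 0.05, one-way test) were applied beside it. The procedure without a block was run on simulated arrays drawn without a litter effect, which does not bear on the fits with the litter block. Replicates are single mice. The labels give the litters, so wt and cKO of the same number are paired; over all tested probe sets their deviations from the group means correlated at r = 0.27, and an alternative fit took the litter as a block. Alternatives also covered the filter, the normalization, the variance prior, 1 probe set per gene and each array left out.

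The members, lists and tests were chosen with earlier results of these data known. Named genes are all members, up to 3 genes per list by lowest unadjusted p, and the 3 nearest profiles; other genes named were chosen after their values were seen. Promoter windows come from RefSeq (GRCm38.p6).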

Additional observations from a re-analysis of the deposited data

Results flagged for a closer look

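For 3 members the difference cKO minus wt had opposite signs in the 2 litters, each litter being 1 pair of mice, and the contrast between litters was not tested. Etv3 differed by -0.41 in litter 1 and 0.018 in litter 2. Fli1 differed by -0.17 in litter 1 and 0.045 in litter 2. Etv6 differed by -1e-04 in litter 1 and 0.064 in litter 2.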

How the results depend on the processing

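Etv5 and Spic were past the thresholds of the study under the other filters, both normalizations and with limma's unadjusted p. With the litter as a replicate block 1 member passed (Etv5), as at a fold of at least 2, and 0 to 1 passed with 1 array left out. Over all tested probe sets the 267 at these thresholds became 135 with the replicate block, 112 to 280 with 1 array left out, 493 with limma's unadjusted p and 88 at a fold of at least 2; with the block or an array left out 1 residual degree of freedom is left to the one-way test. The count past the adjusted threshold was 0, but 1 after quantile normalization, 2 with a trended robust prior and 42 with 1 probe set per gene. Leaving out arrays moved Etv3 between -0.55 and 0.16, Etv6 between -0.0059 and 0.070 and Fli1 between -0.13 and 0.0027, so each changed sign. Of 102 recomputed member differences, 95 kept their sign and their side of the adjusted threshold, 3 changed sign and 4 moved past the threshold (Etv5 and Spic), in fits with 1 probe set per gene chosen after seeing the data. With 1 array left out the lone array is assumed to vary like the pair. With 2 mice per group only wide differences can be told from the spread, as the intervals show.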

Other observations

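Between the wt mice, the litter 2 array was lower than the litter 1 array by 0.70 for Etv3, 0.43 for Spib, 0.32 for Etv5 and 0.23 for Spic. Between the cKO mice it was lower by 0.28 for Etv3, 0.13 for Spib and 0.25 for Etv5, and Spic was 0.03 higher. Ets2, a target of ERK signalling, stayed under the limit of 6.5 on all arrays and was not tested, with 5.98 and 6.46 in cKO and 5.95 and 5.72 in wt.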
